A study of Homo sapiens with 46 samples.

Results

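The comparison described here is the late response to loss of lamin A/C in DLD-1, a human cell line long established from a colorectal adenocarcinoma, which grows as an epithelial sheet. In the LAC line both products of LMNA carry an auxin-inducible degron at the N terminus of the endogenous protein, so that adding auxin marks the tagged protein for destruction by the proteasome. The members are 8 RNA-seq libraries of that line, chosen by their labels out of 46 libraries in the series: 4 after 96 h in 1 mM auxin and 4 at 0 h, before auxin. Untagged parental DLD-1 cells, 4 libraries at 0 h and 4 at 96 h of the same auxin dose, served to measure the response to auxin and time in culture alone. Each replicate was 1 well of a plate, so the spread between replicates is the spread between wells of 1 cell line, and whether the LAC line is a single clone is not given in the sources used here. The labels do not name the plant receptor that auxin acts through, nor a control with the solvent DMSO alone at 96 h.

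Lamins A and C are intermediate filament proteins that form a meshwork beneath the inner nuclear membrane. They give the nucleus stiffness, anchor chromatin, and hold membrane proteins such as emerin, and through the LINC complex of SUN and nesprin proteins they are coupled to actin and to intermediate filaments of the cytoplasm. A pair of transcription programs read tension in that cytoskeleton: YAP with its DNA-binding partner TEAD, and SRF with its actin-sensing cofactor MRTF. In intestinal epithelium, differentiating cells also turn on secretory and absorptive genes, which form part of the lists used below.

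The 8 libraries held 3318819, 29739484, 6620424 and 13987076 counts at 0 h (replicates 1 to 4) and 21662416, 17245554, 20859701 and 13607641 at 96 h. The shallowest, 0 h replicate 1, stood apart from the others of its group: its counts differed from those of replicate 2 by a chi-square of 91.6 per degree of freedom, against 3.98 for replicates 3 and 4. Libraries also differed in how level followed GC content. Spearman's rho between a gene's deviation from its mean over all libraries and its GC content was 0.72, -0.52, 0.50 and 0.27 at 0 h and -0.22, -0.70, -0.67 and -0.58 at 96 h, over 9623 genes. Genes were sorted into 5 bins of equal size by GC content. In the lowest bin the median log2 change from 0 h to 96 h was 0.30 and 14.3% of genes were called higher, and in the highest bin it was -0.41 and 24.5% were called lower. Removing a smooth trend with GC content and length from each library brought these medians to 0.029 and 0.026. The parental line moved with this step too: 847 genes higher and 824 lower at 96 h became 1093 higher and 1992 lower. Parental counts for the gene groups below are those without this step. The same holds for counts of members whose LAC and parental responses differed, which were not repeated without 0 h replicate 1. The part that this trend has in the result for any 1 gene was not tested. For that reason LAC counts with the trend removed and LAC counts without 0 h replicate 1 are given beside the gene groups below.

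**Figure D1:**
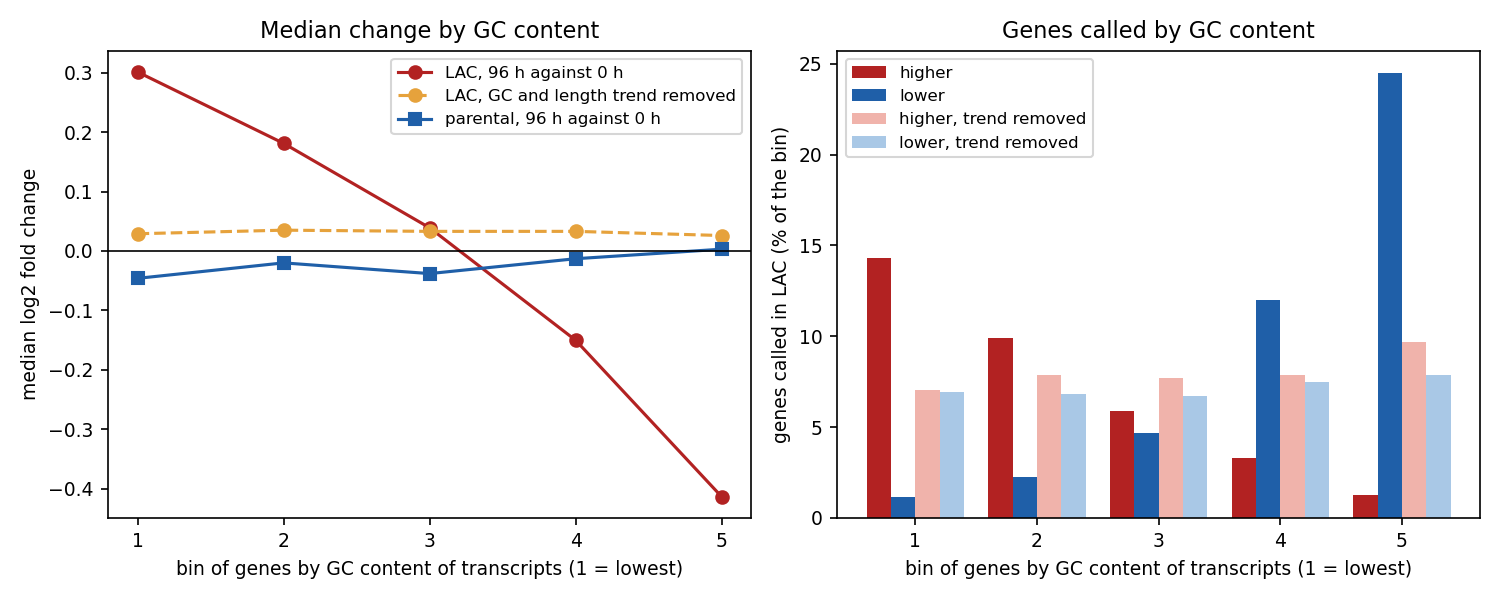
Left, median log2 fold change at 96 h against 0 h (vertical axis) for genes sorted into 5 bins of equal size by GC content of their transcripts (horizontal axis); right, percentage of each bin called higher or lower in the LAC line, before and after removal of the GC and length trend. The LAC median runs from 0.30 in the lowest bin to -0.41 in the highest, the parental median stays between -0.046 and 0.003, and once the trend is removed no bin has more than 9.71% called in 1 direction.

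The degron acts on protein, so the LMNA transcript (chromosome 1, 156082573 to 156140081, GRCh38) does not check the loss of lamin A/C. LMNA stood at 773, 263, 373 and 332 CPM (counts per 1000000 counts of the library, scaled by the TMM method) at 0 h and at 332, 203, 240 and 304 CPM at 96 h. The groups overlap, and 0 h replicate 1 holds the highest of the 8 values by a wide margin. The log2 change of -0.68 ± 0.26 (SE) did not pass the test (adjusted p = 0.0635), and with the trend removed it was -0.15 (adjusted p = 0.513). At 0 h parental cells stood at 738 ± 111 CPM (SD, n = 4) and the LAC line at 435 ± 229.7 CPM, with overlapping values. Differences between the lines at a single time were not tested, for LMNA or any gene below. LMNB1, which encodes lamin B1, stood at 295, 206, 201 and 205 CPM at 0 h and 218, 158, 171 and 191 CPM at 96 h, a log2 change of -0.29 ± 0.15 that did not pass (adjusted p = 0.172). LMNB2, the lamin B2 gene, counted 634, 392, 511 and 454 CPM and then 449.6, 248, 283 and 384 CPM, and its change of -0.54 ± 0.21 did not pass either (adjusted p = 0.0645). For LMNB2 the responses of the cell lines differed, since the parental log2 change was 0.55: the difference was -1.09 ± 0.29 (adjusted p = 0.0177), and -0.48 with the trend removed (adjusted p = 0.0476). Of the 8 genes for lamins and their processing enzymes, 0 were called by edgeR, 0 with the trend removed, 0 without 0 h replicate 1, and 2 each by DESeq2 and limma voom. At an unadjusted p under 0.05, 1 was higher and 4 lower.

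By most of the epithelial identity markers all 8 libraries were epithelial. The 13 markers, among them EPCAM and the transcription factor CDX2, summed to 8275 to 11690 CPM at 0 h and 7064 to 8344 CPM at 96 h. KRT8 and KRT18 held the most counts of the 13. VIL1 and CEACAM5 were low, with 46 and 6 counts over the 0 h group and 100 and 62 over the 96 h group. Of 9 fibroblast, 9 leukocyte, 7 endothelial and 8 neuronal or glial markers, 3, 1, 5 and 4 had counts enough to be tested. DCN, LUM and COL1A2 of the fibroblast list, HLA-DRA of the leukocyte list and KDR of the endothelial list had 0 counts in all 8 libraries. The summed level was 2.37 to 6.80 CPM at 0 h and 1.845 to 2.57 CPM at 96 h for the fibroblast list, and 1.295 to 2.995 against 2.71 to 3.63 CPM for the leukocyte list. Endothelial markers summed to 15.6 to 33.7 CPM at 0 h and 15.0 to 18.2 CPM at 96 h. The neuronal and glial list went from 14.9 to 29.4 CPM at 0 h to 31.3 to 34.4 CPM at 96 h, with no overlap, OLIG2 and S100B being at 0 counts. MAP2 of that list was called higher and COL1A1 of the fibroblast list lower, MAP2 also with the trend removed, and neither without 0 h replicate 1. The part of these markers in the results below was not tested. Because these are bulk libraries, fewer cells expressing a gene and less RNA per cell cannot be told apart.

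Over all genes, 3304 of 21484 tested were called between 96 h and 0 h (edgeR's quasi-likelihood test, Benjamini-Hochberg adjusted p below 0.05), which is 15.4%. Of these, 1447 (6.74%) were higher and 1857 (8.64%) lower at 96 h, 297 and 421 of them by at least 2-fold. With the trend removed 3168 genes (14.7%) were called, 1672 higher (7.78%) and 1496 lower (6.96%), so the balance between directions depends on the trend. Called in both fits were 1038 genes higher and 974 lower, and 0 genes were called in opposite directions. Without 0 h replicate 1 the count was 1755. Scaling by library size alone, which moved the median log2 change of all genes from 0.031 to 0.152, gave 2600 higher and 1290 lower.

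The genes that changed most were named by a rule: called with and without the trend, protein-coding, at least 5 CPM on average, at least 2-fold, and with no overlap between the 4 values at 0 h and the 4 at 96 h, as held for 17.6% of all genes tested (9.03% higher and 8.53% lower). In all, 248 genes met it, 86 higher and 162 lower, and the 12 largest each way are described.

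The largest rise by this rule was that of CFTR. CFTR, the chloride channel of epithelial apical membranes (chromosome 7, 117287120 to 117715971), stood at 2.27, 0.887, 2.86 and 1.36 CPM at 0 h and 8.64, 11.2, 11.5 and 10.9 CPM at 96 h, a log2 change of 2.77 ± 0.31 (adjusted p = 1.01e-08). S100P, a small calcium-binding protein, counted 13.0, 21.0, 22.6 and 20.4 CPM before auxin and 91.8, 93.6, 83.9 and 78.9 CPM after, a log2 change of 2.14 ± 0.17 (adjusted p = 5.6e-13). CDH17, the cadherin of intestinal epithelium, went from 23.3, 28.0, 24.0 and 26.1 CPM to 105, 109.7, 101 and 102 CPM, by 2.03 ± 0.16 (adjusted p = 3.73e-13). The rule itself requires groups that do not overlap. In each of these 3 genes the gap between the groups was also wider than the range within either group. CEMIP, which takes part in hyaluronan breakdown, rose by 1.96 ± 0.16, and HAS2, a hyaluronan synthase, by 1.71 ± 0.18, from 14.9, 32.7, 20.3 and 22.5 CPM to 72.2, 78.7, 75.4 and 80.0 CPM. EDAR, the ectodysplasin receptor, rose by 2.09, the lysosomal membrane protein LAMP3 by 1.90, STEAP1 of a metalloreductase family by 1.77, the butyrophilin BTN3A1 by 1.69 and the prolactin receptor PRLR by 1.66. SESN3, a stress-induced sestrin, rose by 1.74 and ANKRD22, an ankyrin-repeat protein, by 1.74. The adjusted p of these 9 genes lay between 1.49e-12 and 7.54e-06, and all 12 were called in every alternative fit run.

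In the parental line, which has no degron, 11 of these 12 genes also rose. The parental log2 change was 1.29 for CFTR, 1.43 for CDH17 and 0.56 for S100P, and the gene not called there was BTN3A1 (0.31, adjusted p = 0.361). The LAC response exceeded the parental one by 1.58 ± 0.23 for S100P (adjusted p = 7.48e-05), by 1.38 ± 0.29 for BTN3A1 (adjusted p = 0.00357) and by 1.06 ± 0.26 for HAS2 (adjusted p = 0.00956). Likewise it exceeded it for CEMIP (1.03), STEAP1 (1.02) and ANKRD22 (0.82), and these 6 differences were called in every alternative. The differences of CFTR (1.48), EDAR (1.24) and SESN3 (0.95) were called but lost in 7, 5 and 12 of the 26 alternatives. Those of CDH17, LAMP3 and PRLR were not called (adjusted p = 0.0762, 0.329 and 0.485). Since the 12 genes were picked for the largest LAC rise, the choice itself favors a LAC response above the parental one.

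Levels at 0 h and 96 h in both lines are given here for S100P and HAS2. S100P stood at 19.2 ± 4.28 CPM in the LAC line and 57.2 ± 10.2 CPM in the parental line at 0 h (SD, n = 4), and at 87.1 ± 6.84 and 84.2 ± 11.9 CPM at 96 h. HAS2 began at 22.6 ± 7.46 and 19.8 ± 2.83 CPM, and ended at 76.6 ± 3.51 and 31.4 ± 2.57 CPM.

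Among the 12 largest falls were CAVIN1 and ANKRD1. CAVIN1, the coat protein of caveolae (chromosome 17, 42402449 to 42423256), stood at 794, 334, 476 and 429 CPM at 0 h and 139, 83.0, 98.1 and 131 CPM at 96 h, a log2 change of -2.17 ± 0.25 (adjusted p = 2.83e-08). ANKRD1, an ankyrin-repeat protein and a classic YAP target, counted 30.8, 38.1, 31.3 and 40.7 CPM and then 7.05, 5.76, 6.57 and 5.36 CPM, a change of -2.51 ± 0.19 (adjusted p = 9.32e-14). The actin-binding caldesmon gene CALD1 fell by 1.80 to 7.38, 6.21, 4.72 and 5.80 CPM, and the carboxypeptidase CPA4 fell by 2.24. The homeobox gene MSX1 changed by -2.10 and ALPP, placental-type alkaline phosphatase, by -1.96, in each case with 0 h replicate 1 far above the other libraries. ALPP has close paralogs, and reads shared with them make its count uncertain. CCN1, also among the 12, is described with the YAP targets.

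For 5 others of the 12 the change was over 1.5 times smaller on the log2 scale once the trend was removed (adjusted p in the designed fit 4.37e-05 to 0.00161). TMEM160 stood at 51.8, 5.29, 10.3 and 17.1 CPM at 0 h and 3.60, 2.40, 3.19 and 3.23 CPM at 96 h, a log2 change of -2.64 ± 0.58, which was -1.39 with the trend removed. CTXN1 changed by -2.15 and by -0.92 with the trend removed, CCDC9 by -1.81 and -1.17, SART1, a component of the spliceosome, by -1.71 and -1.13, and ADAT3, a subunit of a tRNA deaminase, by -1.71 and -0.78. In all 5 the value in 0 h replicate 1 was at least 2 times that of any other library. Without it the changes were -1.78 for TMEM160, -1.28 for CTXN1, -1.22 for CCDC9, -1.18 for SART1 and -1.16 for ADAT3 (adjusted p = 0.0255, 0.0389, 0.00112, 0.0059 and 0.0273). Exons of ADAT3 overlap those of SCAMP4 on the same strand, so its reads may come from either gene.

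**Figure D2:**
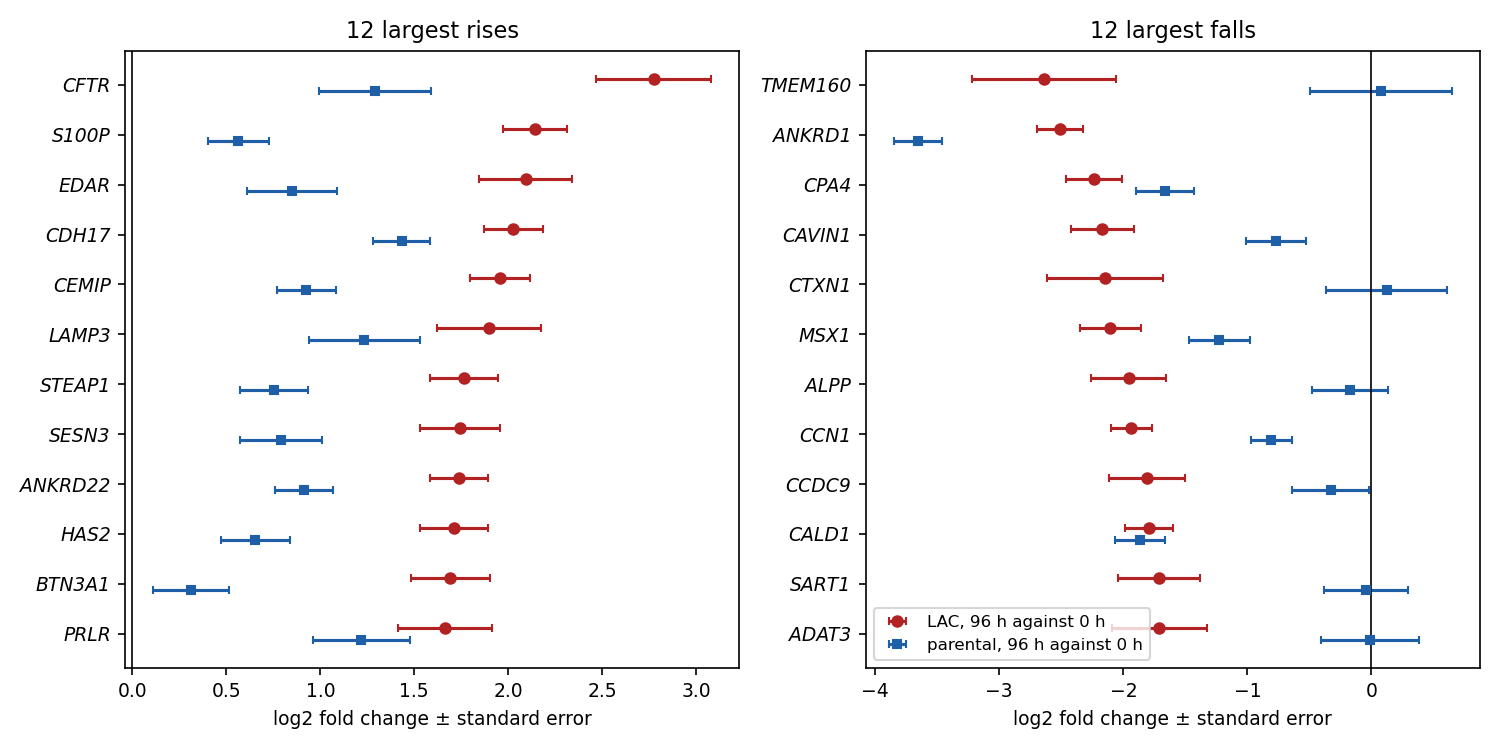
Log2 fold change at 96 h against 0 h (horizontal axis, points, with standard errors as bars) in the LAC line (circles) and in the parental line (squares) for the 12 genes with the largest rise and the 12 with the largest fall. All LAC values of the rises lie between 1.66 and 2.77, while the parental values lie between 0.31 and 1.43, and ANKRD1 is the gene that fell furthest in the parental line, by 3.66. The genes were chosen by their LAC change, and this choice alone favors smaller parental changes.

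Most of the tested targets of YAP and TEAD fell. Of 20 tested, 13 fell and 0 rose, against 8.64% lower among all genes, with a median log2 change of -0.74 where that of all genes was 0.031. The counts were 13 and 0 with the trend removed and 12 and 0 of 21 without 0 h replicate 1. CCN1, a secreted matricellular protein and YAP target, stood at 299, 282, 312 and 338 CPM at 0 h, 334, 350, 330.3 and 240.4 CPM at 16 h and 98.3, 72.9, 71.3 and 78.9 CPM at 96 h. The first 8 values overlap and the last 4 lie apart from them, and the log2 change from 0 h to 96 h was -1.94 ± 0.17 (adjusted p = 5.27e-12). Its relative CCN2 counted 35.0, 47.1, 42.1 and 54.6 CPM at 0 h and 20.2, 16.3, 16.6 and 20.8 CPM at 96 h, a change of -1.29 ± 0.16 (adjusted p = 1.4e-07). AJUBA, a LIM protein of cell junctions that restrains the Hippo kinases, fell by 1.06, and AMOTL2, PTPN14, LATS2 and WWC1, all of which act back on YAP, were also among the 13. In the parental line, where 1671 of all genes (7.78%) were called, 3.94% higher and 3.84% lower, 6 of the 20 fell and 1 rose. ANKRD1 fell further there, from 117, 96.1, 85.9 and 96.7 CPM to 7.27, 7.58, 10.3 and 6.71 CPM, so the difference of the responses was 1.14 ± 0.26 (adjusted p = 0.0058). For CCN1 and CCN2 the LAC fall was the deeper one, with differences of -1.13 ± 0.23 (adjusted p = 0.00267) and -0.98 ± 0.23 (adjusted p = 0.00794). In all, 7 of the 20 had a lower response in the LAC line and 1 a higher one, against 4.3% and 3.1% of all genes.

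Falls outnumbered rises among genes of the actin cytoskeleton too. Among 28 SRF targets and contractile actin genes, 16 fell and 0 rose, against 8.64% lower and 6.74% higher among all genes, with a median log2 change of -0.52, and the counts were 16 and 1 with the trend removed and 16 and 0 without 0 h replicate 1. ACTB, cytoplasmic beta-actin, stood at 9912, 9734, 9326 and 9426 CPM at 0 h and 5091, 4217, 4195 and 4535 CPM at 96 h. That is a log2 change of -1.09 ± 0.13 (adjusted p = 4.6e-08) with no overlap between the groups. FLNA, filamin A, which crosslinks actin filaments, counted 5289, 4493, 5517 and 5344 CPM and then 2611, 1516, 1764 and 2384 CPM, a change of -1.32 ± 0.18 (adjusted p = 6.43e-07). ACTG1, gamma-actin, changed by -0.74 ± 0.11 and CNN2, calponin 2, by -1.03 ± 0.13, with adjusted p of 2.16e-06 and 1.79e-07. Other members lower included ACTN1, ACTN4, CALD1, MYH9, MYH10, PDLIM7, TLN1, TPM1, TPM3, WDR1 and ZYX, which encode actinins, nonmuscle myosins, tropomyosins and proteins of focal adhesions. The summed level of the 28 genes went from 26910 to 27590 CPM at 0 h to 13240 to 16600 CPM at 96 h. Actin genes have many near-identical processed copies in the genome, and how reads shared with them were counted is not given in the sources used here.

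In the parental line ACTB changed by -0.39 and FLNA by -0.49 (adjusted p = 0.0471 and 0.0682). The response differed from the parental one by -0.70 ± 0.18 for ACTB (adjusted p = 0.0154), and similarly for FLNA, CNN2 and ACTG1 (-0.83, -0.76 and -0.52). With the trend removed these 4 differences were -0.24, -0.32, -0.33 and -0.13 and none was called (adjusted p = 0.267, 0.255, 0.201 and 0.532). ACTB began at 9599 ± 271 CPM in the LAC line and 5868 ± 252 CPM in parental cells (SD, n = 4), and ended at 4509 ± 418 and 4465 ± 543 CPM.

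The promoters of the falling genes are shown because the motifs of TEAD and SRF can be read in some of them. Sequences are the 250 bases before the start of the gene, from RefSeq on GRCh38.p14, written 5′ to 3′ along the gene's strand, and capitals mark the motif. In CCN2 (chr6:131951373-131951622, minus strand) and ANKRD1 (chr10:90921088-90921337, minus strand) the capitals are GGAATG, the core that TEAD factors bind, sought on both strands.
CCN2: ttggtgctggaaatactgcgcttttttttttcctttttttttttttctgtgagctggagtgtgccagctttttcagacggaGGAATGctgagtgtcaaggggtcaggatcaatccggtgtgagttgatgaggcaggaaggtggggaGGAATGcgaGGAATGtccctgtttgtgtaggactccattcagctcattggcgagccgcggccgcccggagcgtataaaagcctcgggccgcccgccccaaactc
ANKRD1: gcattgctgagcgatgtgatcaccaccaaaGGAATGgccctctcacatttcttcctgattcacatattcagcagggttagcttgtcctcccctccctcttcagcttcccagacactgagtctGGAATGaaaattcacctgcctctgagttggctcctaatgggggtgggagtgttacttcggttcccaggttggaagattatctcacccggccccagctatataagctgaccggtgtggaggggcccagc
CCN2 holds it 3 times, at 169, 104 and 95 bases before the start, and ANKRD1 at 220 and 128 bases. In ACTG1 (chr17:81512800-81513049, minus strand), CNN2 (chr19:1026358-1026607, plus strand) and FLNA (chrX:154374635-154374884, minus strand) the capitals are a CArG box, the element that SRF binds, at 94, 89 and 94 bases before the start.
ACTG1: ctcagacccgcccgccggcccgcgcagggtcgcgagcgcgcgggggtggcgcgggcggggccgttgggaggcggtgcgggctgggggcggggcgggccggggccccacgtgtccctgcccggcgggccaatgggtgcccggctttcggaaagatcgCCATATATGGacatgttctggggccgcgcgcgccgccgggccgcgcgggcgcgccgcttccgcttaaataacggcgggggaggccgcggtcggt
CNN2: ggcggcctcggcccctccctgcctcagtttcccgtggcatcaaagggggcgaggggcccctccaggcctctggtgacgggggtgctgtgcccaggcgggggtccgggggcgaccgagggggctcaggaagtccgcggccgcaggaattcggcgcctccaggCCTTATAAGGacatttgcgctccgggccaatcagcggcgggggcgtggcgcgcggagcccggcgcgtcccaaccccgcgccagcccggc
FLNA: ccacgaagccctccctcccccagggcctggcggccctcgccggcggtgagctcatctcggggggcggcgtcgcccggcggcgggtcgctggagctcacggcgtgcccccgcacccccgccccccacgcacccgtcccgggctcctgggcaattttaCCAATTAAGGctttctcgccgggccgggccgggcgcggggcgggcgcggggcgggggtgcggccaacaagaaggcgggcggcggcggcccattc
Of the 10 falling YAP and TEAD targets with a promoter in the table, 5 held GGAATG in at least 1 promoter, against 13.3% of 11060 tested protein-coding genes with a promoter. Counted by promoter it was 5 of 12, against 11.9% of all 35116. Among the 14 falling SRF and actin genes with a promoter, 4 held a CArG box, against 1.53% of the tested protein-coding genes. By promoter it was 4 of 22, against 1.16% of all. GGAATG was also found in 4 of these 14 genes and in 1 of 3 falling caveolar genes. A CArG box was found in 0 of the 10 YAP and TEAD targets and in 0 of the 3 caveolar genes. A match describes the letters in this window and is no measure of binding, and these lists were drawn up from genes known to answer to the factors.

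**Figure D3:**
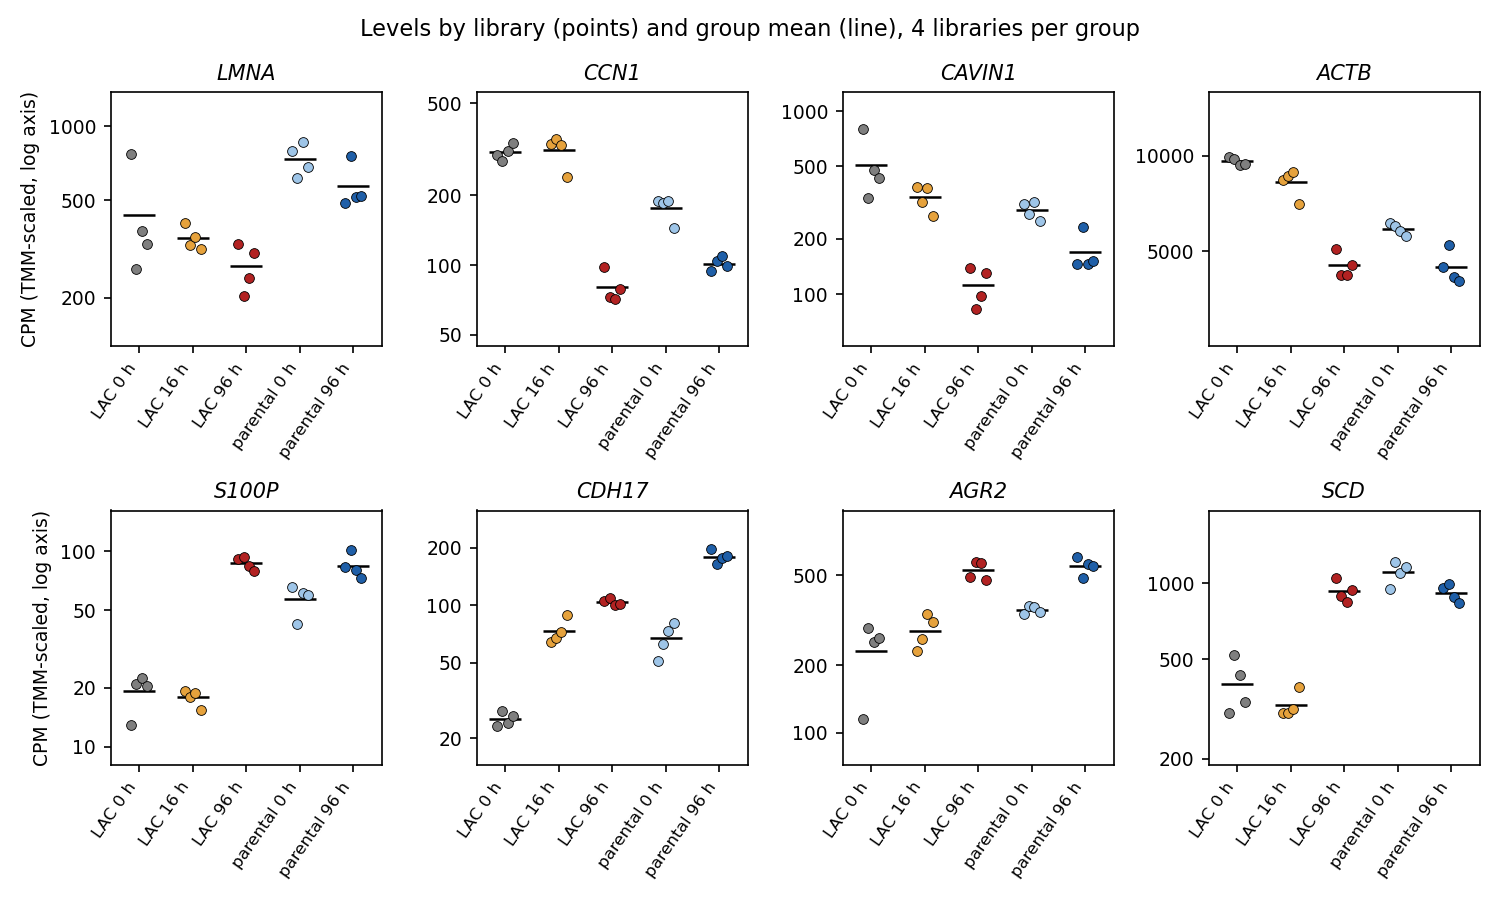
Level of 8 genes in CPM (TMM-scaled, logarithmic vertical axes) in the LAC line at 0, 16 and 96 h of auxin and in the parental line at 0 and 96 h (horizontal axis). Points are libraries and lines are means of 4. Within the LAC line CCN1, CAVIN1 and ACTB are lowest and S100P, CDH17, AGR2 and SCD highest at 96 h, and LMNA overlaps between 0 h and 96 h.

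Caveolae are flask-shaped pits that flatten when a membrane is stretched. Of 5 tested components 4 fell, all 5 with the trend removed, and 4 without 0 h replicate 1, beside 8.64% lower among all genes. Besides CAVIN1 these were CAV1, caveolin-1 itself, with a change of -1.12 ± 0.19 (adjusted p = 6.59e-05), EHD2, an ATPase of the caveolar neck, with one of -1.37 ± 0.22, and PACSIN2, which bends membranes. CAV1 stood at 26.6, 75.5, 54.8 and 59.0 CPM at 0 h and 26.1, 29.7, 21.8 and 24.0 CPM at 96 h, and 0 h replicate 1 falls within the 96 h range. The same 5 genes had a median change of -1.12 in the LAC line and -1.03 in the parental line, where 4 also fell. Only CAVIN1 differed between the lines, by -1.40 ± 0.35 (adjusted p = 0.0108), and it did so in every alternative.

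Of 12 genes for keratins and cytoplasmic intermediate filaments, a list that holds plakin linkers too, 6 fell and 1 rose. Once the trend was removed 6 fell and 2 rose, and 4 fell and 0 rose without 0 h replicate 1. Among all genes 8.64% fell and 6.74% rose, or 6.96% and 7.78% with the trend removed. PLEC, plectin, which ties intermediate filaments to hemidesmosomes and to nesprin at the nucleus, stood at 3108, 1098, 1593 and 1634 CPM at 0 h and 861, 412, 529 and 749 CPM at 96 h. Its change of -1.54 ± 0.28 (adjusted p = 0.000129) was -0.79 with the trend removed. The plakins EVPL and PPL, envoplakin and periplakin, changed by -1.01 and -0.95, and the simple-epithelial keratin KRT19 by -0.81. Without 0 h replicate 1, EVPL (-0.65, adjusted p = 0.0514) and KRT19 (-0.46, adjusted p = 0.138) were not called. The 2 most abundant keratins were not called: KRT8 changed by -0.40 ± 0.19 (adjusted p = 0.161) and KRT18 by 0.00 ± 0.11 (adjusted p = 1). Exons of KRT8 and KRT18 overlap on opposite strands.

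Among 26 adherens junction, tight junction and desmosome genes, 7 fell and 2 rose, against 8.64% and 6.74% of all genes. With the trend removed 7 fell and 6 rose, and without 0 h replicate 1 again 7 and 2. JUP, plakoglobin, of desmosomes and adherens junctions, fell by 1.00 ± 0.15 (adjusted p = 7.45e-06), from 690.2, 542, 607 and 567 CPM to 371, 257, 258 and 315 CPM. PKP3, plakophilin 3, fell by 0.91 in the designed fit and was at -0.096 (adjusted p = 0.6) with the trend removed. DSC2, desmocollin 2, rose by 0.73 ± 0.15 (adjusted p = 0.000708), and was named after its values were seen. Integrin subunits moved both ways, 3 higher and 2 lower of 12, and 1 and 3 both with the trend removed and without 0 h replicate 1. ITGB4, the beta-4 subunit of hemidesmosomes, fell by 0.91 ± 0.19 (adjusted p = 0.000574) and ITGA2, part of a collagen receptor, rose by 0.64 ± 0.19 (adjusted p = 0.0183). ITGA2 was not called without 0 h replicate 1 (0.48, adjusted p = 0.112) or without 96 h replicate 1.

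Extracellular matrix genes of epithelium gave 7 lower and 2 higher of 22, against 8.64% and 6.74% of all genes. The counts were 6 and 3 with the trend removed, and 5 and 1 without 0 h replicate 1. TNC, the matrix glycoprotein tenascin C, fell by 1.38 ± 0.26 (adjusted p = 0.000185), and COL7A1, the collagen of anchoring fibrils, fell by 1.11. COL7A1 was not called with the trend removed (-0.42, adjusted p = 0.318) nor without 0 h replicate 1 (-0.58, adjusted p = 0.294).

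Among goblet and secretory lineage genes the calls were rises. Of 15 tested, 6 rose, 0 fell and 9 were not called, against 6.74% higher among all genes, with a median log2 change of 0.84. With the trend removed 7 rose, and without 0 h replicate 1 the count was again 6. AGR2, a disulfide isomerase needed for mucin folding, stood at 116, 293, 254 and 265 CPM at 0 h and 491, 575, 566 and 475 CPM at 96 h, a rise of 1.18 ± 0.18 (adjusted p = 1.1e-05). The trefoil peptides, which are secreted with mucus, were TFF1, higher by 1.57 ± 0.29 (adjusted p = 0.000156), and TFF3, by 0.84 ± 0.21 (adjusted p = 0.0043), the latter named after its values were seen. REG4, a secreted lectin of intestinal secretory cells, had 0 counts in all 4 libraries at 0 h and 30 counts in all at 96 h. Against a floor of 3 counts over the 0 h group it was at least 7.31-fold higher. In parental cells 4 of the 15 rose and the median was 0.75. Of the 15 genes 1, CFTR, responded more in the LAC line, and this difference was lost in 7 of the 26 alternatives.

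Absorptive-cell genes gave no common direction, with 1 higher and 2 lower of 17, against 6.74% and 8.64% of all genes. The counts were 3 and 2 with the trend removed, and 2 and 2 without 0 h replicate 1. EZR, ezrin, which links microvilli to actin, fell by 0.80 ± 0.12 (adjusted p = 2.53e-06), from 687, 650.2, 646 and 699 CPM to 423, 326, 365 and 423 CPM. HNF4A, a transcription factor of intestinal epithelium, fell by 0.69 ± 0.11 (adjusted p = 1.76e-05), and not in the parental line (-0.074, adjusted p = 0.735). The difference of the HNF4A responses was -0.62 (adjusted p = 0.0125), and -0.29 with the trend removed (adjusted p = 0.137). CEACAM5, the carcinoembryonic antigen, was low at 0 h, at 0, 0.185, 0.159 and 0 CPM, and stood at 1.22, 0.615, 0.556 and 0.954 CPM at 96 h (adjusted p = 0.00413).

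WNT feedback targets depended on the trend: 3 rose and 2 fell of 17, and 9 rose and 2 fell with the trend removed. Without 0 h replicate 1, 2 rose and 0 fell, and of all genes 6.74% rose and 8.64% fell in the designed fit. EPHB2, an ephrin receptor of the crypt, stood at 22.7, 23.7, 24.5 and 21.8 CPM and then 68.8, 52.2, 48.1 and 56.1 CPM, a rise of 1.28 ± 0.19 (adjusted p = 5.03e-06). It rose by 1.63 in parental cells, and the responses did not differ by the test (-0.35 ± 0.27, adjusted p = 0.456). APCDD1, a WNT inhibitor, rose by 1.47 at levels under 3 CPM, and was not called without 0 h replicate 4. AXIN2, the negative regulator most used as a readout, fell by 0.52 ± 0.14 (adjusted p = 0.00915), from 732, 417, 458 and 448 CPM to 398, 319.7, 345 and 369 CPM, and without 0 h replicate 1 it was not called (-0.29, adjusted p = 0.163).

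Circadian clock genes rose or were not called: 5 of 17 higher and 0 lower, against 6.74% and 8.64% of all genes. The counts were 9 and 0 with the trend removed, and 3 and 0 without 0 h replicate 1. PER2, a repressor of the clock, stood at 19.1, 30.9, 31.6 and 33.3 CPM at 0 h and 62.4, 47.5, 45.4 and 51.6 CPM at 96 h, a rise of 0.82 ± 0.13 (adjusted p = 1.39e-05). HLF, an output transcription factor, rose by 1.66 ± 0.37 at levels under 5 CPM, NFIL3 by 0.86 ± 0.24 and RORA by 0.56 ± 0.15. RORA was not called without 0 h replicate 1 (0.37, adjusted p = 0.0939). In parental cells 3 of the 17 rose, PER2 among them by 1.27, and 0 of the 17 differed between the lines, against 7.4% of all genes.

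Interferon-stimulated genes gave calls in both directions. Of 28 tested, 6 rose and 3 fell, beside 6.74% higher and 8.64% lower among all genes. Counts were 8 and 3 with the trend removed, and 4 and 2 without 0 h replicate 1. OAS1, a sensor that makes an activator of RNase L, rose by 1.27 ± 0.22 (adjusted p = 7.3e-05), from 0.971, 8.76, 7.47 and 6.64 CPM to 15.5, 18.1, 16.7 and 14.2 CPM. PSMB9, a subunit of the immunoproteasome, rose by 1.54 ± 0.21 (adjusted p = 1.09e-06), B2M, IFIH1, MX2 and PSMB8 rose too, and exons of PSMB8 and PSMB9 overlap on opposite strands. ISG15, a ubiquitin-like modifier, moved the other way, with a change of -1.47 ± 0.33 (adjusted p = 0.00151) and IRF7, a transcription factor of the interferon loop, with one of -1.28 ± 0.20 (adjusted p = 8.55e-06). ISG15 stood at 261, 83.6, 73.7 and 83.0 CPM at 0 h and 49.5, 42.6, 48.3 and 36.0 CPM at 96 h, and without 0 h replicate 1 its change was -0.85 (adjusted p = 0.0508). The PSMB9 response exceeded the parental one by 1.27 ± 0.30 (adjusted p = 0.00864). Among 17 NF-kB targets, cytokines and chemokines 3 fell and 0 rose, 2 and 1 with the trend removed, and 3 and 0 without 0 h replicate 1.

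In the designed fit immediate early genes responded less than in the parental line where the lines differed. EGR1, a zinc finger factor induced by growth signals, stood at 216, 165, 202 and 196 CPM at 0 h and 390.2, 249, 299 and 349 CPM at 96 h, a rise of 0.73 ± 0.16 (adjusted p = 0.00123). In parental cells it rose by 1.67, from 194 ± 10.7 to 614 ± 64.1 CPM (SD, n = 4), so the LAC response was the smaller, with a difference of -0.94 ± 0.23 on the log2 scale (adjusted p = 0.00877). FOS, a subunit of AP-1, rose by 0.82 ± 0.17 in the LAC line and by 1.64 in parental cells, a difference of -0.82 that was not called with the trend removed (-0.43, adjusted p = 0.27). Over the 22 genes of the list, 3 rose and 4 fell in the LAC line, 6 rose and 1 fell in the parental line, and 7 had a lower response in the LAC line and 0 a higher one, against 4.3% and 3.1% of all genes. In the LAC line 4 rose and 3 fell with the trend removed, and without 0 h replicate 1 the counts were 2 and 2. JUND, another AP-1 subunit, fell by 1.30, and ZFP36, which speeds decay of short-lived mRNAs, fell by 0.97. The lower response of ZFP36 than in the parental line was not called with the trend removed or without 0 h replicate 1. Neither JUND (-0.76, adjusted p = 0.125) nor ZFP36 (-0.48, adjusted p = 0.152) was called without 0 h replicate 1, and JUND was not called with the trend removed (-0.31, adjusted p = 0.248). MAPK feedback genes gave 3 higher and 2 lower of 14, 2 and 1 with the trend removed, and 2 and 0 without 0 h replicate 1. Both lists stand beside 6.74% higher and 8.64% lower among all genes.

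In the designed fit lipid synthesis genes responded more than in the parental line where the lines differed. SCD, the desaturase that makes monounsaturated fatty acids, stood at 303, 518, 432 and 338 CPM at 0 h, 305, 305, 317 and 387 CPM at 16 h and 1055, 893, 845 and 941 CPM at 96 h. The values at 96 h lie above all of the first 8, and the rise from 0 h was 1.23 ± 0.15 (adjusted p = 6.04e-08). Parental SCD changed by -0.27 (adjusted p = 0.264), and the difference was 1.50 ± 0.21 (adjusted p = 3.65e-05). STARD4, a carrier of cholesterol between membranes, rose by 0.77 ± 0.14 and differed by 1.18 ± 0.20 (adjusted p = 0.000539), and was named after its values were seen. For SCD and STARD4 the LAC mean was below the parental mean at 0 h and close to it at 96 h. These levels are given at the end, and the difference between the lines at either time was not tested. Over 32 sterol and fatty acid synthesis genes 6 rose and 3 fell, against 6.74% and 8.64% of all genes, 9 and 2 with the trend removed, and 4 and 0 without 0 h replicate 1. Of these 32, in the designed fit, 8 had a higher response than in the parental line and 0 a lower one, against 3.1% and 4.3% of all genes. FASN, fatty acid synthase, fell by 0.79, and MVD, of the mevalonate pathway, fell by 1.14. FASN was not called with the trend removed (-0.13, adjusted p = 0.337), and without 0 h replicate 1 neither FASN (-0.49, adjusted p = 0.182) nor MVD (-0.56, adjusted p = 0.119) was.

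SLC7A11, the cystine importer that feeds glutathione synthesis, stood at 71.5, 126, 88.0 and 99.9 CPM at 0 h and 165, 183, 169 and 166 CPM at 96 h, a rise of 0.81 ± 0.14 (adjusted p = 5.57e-05). Its parental change was -0.41, and the difference of 1.23 ± 0.20 (adjusted p = 0.000338) was called in every alternative. NQO1, a quinone reductase, rose by 1.02 ± 0.13 (adjusted p = 1.02e-07), from 148 ± 28.6 to 301 ± 19.0 CPM (SD, n = 4), where parental cells began at 325 ± 14.1 CPM. NRF2 targets, which include both, gave 4 higher and 0 lower of 17, against 6.74% and 8.64% of all genes. Their counts were 3 and 1 with the trend removed, and 3 and 0 without 0 h replicate 1. The ATF4 stress list gave 2 higher and 4 lower of 20, 4 and 0 with the trend removed, and 1 and 2 without 0 h replicate 1. Its responses lay above the parental one in 6 genes and below it in 1, against 3.1% and 4.3% of all genes. The receptor AHR binds planar aromatic compounds, and its targets gave 3 higher and 0 lower of 8, 5 and 1 with the trend removed, and 3 and 0 without 0 h replicate 1. CYP1A1, its best-known target, stood at 3.24, 2.96, 3.65 and 4.68 CPM at 0 h, 16.6, 16.7, 16.8 and 24.3 CPM at 16 h and 8.50, 6.43, 7.55 and 7.63 CPM at 96 h. It rose by 1.05 ± 0.23 in the LAC line and by 2.84 in the parental line, so the response was the smaller, with a difference of -1.79 ± 0.36 (adjusted p = 0.00233). CYP1B1, also of that list, rose by 0.78 ± 0.13 and did not differ by the test (-0.27 ± 0.19, adjusted p = 0.393).

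Transcripts of the mitochondrial genome were lower or not called. Of its 13 protein genes 7 fell and 0 rose, against 8.64% and 6.74% of all genes, with a median log2 change of -0.87. Counts were 10 and 0 with the trend removed, 7 and 0 without 0 h replicate 1, and 2 and 0 with scaling by library size alone. Without other single libraries the falls were 2 (0 h replicate 3), 3 (0 h replicate 4), 2 (96 h replicate 2), 1 (96 h replicate 3) and 3 (96 h replicate 4). MT-ND5, a subunit of complex I, stood at 692, 492, 822 and 724 CPM at 0 h and 409, 298, 268 and 280 CPM at 96 h, a change of -1.12 ± 0.30 (adjusted p = 0.00724). MT-ND6, the only one encoded on the other strand, fell by 1.24 ± 0.36, and MT-ND4 fell by 0.88 ± 0.30 (adjusted p = 0.0142 and 0.0339). MT-ND6 was not called without 96 h replicate 3, and MT-ND4 was not called without 5 of the 8 libraries taken singly or with library size alone. MT-CO1, the most abundant, stood at 1632, 5537, 5837 and 5232 CPM and then 4273, 5094, 3891 and 3788 CPM, and did not pass (adjusted p = 0.882). The share of all counts on the mitochondrial genome was 0.844% to 1.61% at 0 h and 0.908% to 0.958% at 96 h. In parental cells 0 of the 13 were called, and 6 had a lower response in the LAC line, against 4.3% of all genes. Copies of these genes in the nuclear genome can share reads. Among 61 nuclear genes of the respiratory chain 10 fell and 1 rose, and 4 fell and 1 rose with the trend removed, and 0 rose and 1 fell without 0 h replicate 1.

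Calls among ribosome biogenesis genes were falls in the LAC line and rises in the parental line. Of 26 tested, 6 fell and 0 rose, against 8.64% and 6.74% of all genes. The counts were 5 and 1 with the trend removed, and 3 and 0 without 0 h replicate 1. In parental cells 12 rose and 0 fell, against 3.94% and 3.84% of all genes, and 10 of the 26 had a lower response in the LAC line and 0 a higher one, against 4.3% and 3.1%. PES1, of the PeBoW complex that matures the large subunit, stood at 491, 225, 244 and 246 CPM at 0 h and 171, 133, 145 and 156 CPM at 96 h, a change of -0.99 ± 0.20 (adjusted p = 0.00051), and differed from the parental response by -1.32 ± 0.28 (adjusted p = 0.00391). NCL, nucleolin, changed by -0.54 ± 0.18 in the LAC line (adjusted p = 0.0356) and by 0.60 in the parental line (adjusted p = 0.0293), a difference of -1.14 ± 0.26 (adjusted p = 0.00548). Both differences were called in every alternative. BOP1, the partner of PES1, fell by 1.00, and NOP14, of the small-subunit processome, fell by 1.12. Without 0 h replicate 1, BOP1 (-0.50, adjusted p = 0.191), NOP14 (-0.24, adjusted p = 0.664) and NCL (-0.32, adjusted p = 0.28) were not called. Cytosolic ribosomal proteins gave 3 higher and 2 lower of 78, 4 and 1 with the trend removed, and 0 and 1 without 0 h replicate 1.

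Cell cycle genes gave counts that depended on the setting, and are read beside 6.74% higher and 8.64% lower among all genes. Of 33 mitotic genes 6 fell and 0 rose, with a median log2 change of -0.17, and 15 fell with the trend removed, 3 without 0 h replicate 1, 2 with library size alone, and 0 with no filter on low counts or with the compared libraries alone. UBE2C, the ubiquitin carrier of the anaphase-promoting complex, fell by 0.44 ± 0.15 and BIRC5, survivin, fell by 0.43 ± 0.13 (adjusted p = 0.0352 and 0.0196). Neither was called with the trend removed (adjusted p = 0.0748 and 0.0832), nor without 0 h replicate 1, where the changes were -0.29 and -0.28 (adjusted p = 0.233 and 0.187). S phase and replication genes gave 2 higher and 7 lower of 37, DNA repair genes 4 and 1 of 20, and p53 targets 4 and 1 of 20. Removing the trend gave 6 and 7, 2 and 2, and 3 and 0, and without 0 h replicate 1 they were 2 and 7, 2 and 1, and 0 and 0. Replication-dependent histone genes, whose mRNAs lack a poly(A) tail and are kept by the ribosomal RNA depletion used here, gave 6 higher and 0 lower of 42, 14 and 1 with the trend removed, and 4 and 0 without 0 h replicate 1. Histone genes of 1 type are near-identical, so single members are uncertain.

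Genes listed as partners of lamin A/C at the nuclear envelope moved both ways. Of 16 genes listed as lamin partners of the inner nuclear membrane 2 rose and 3 fell, against 15.4% of all genes called. The counts were 3 and 1 once the trend was removed and 2 and 2 without 0 h replicate 1. TOR1AIP2, which activates torsin ATPases, stood at 679, 736, 664 and 656 CPM at 0 h and 455, 436, 453 and 473 CPM at 96 h, a change of -0.59 ± 0.12 (adjusted p = 0.000366). NRM, nurim, fell by 0.63 ± 0.17 (adjusted p = 0.00658), and EMD, emerin, fell by 0.38 ± 0.13 (adjusted p = 0.0423), the latter named after its values were seen. With the trend removed neither NRM (-0.30, adjusted p = 0.0936) nor EMD (-0.038, adjusted p = 0.901) was called, and EMD was not called without any 1 of the 4 libraries at 0 h. NEMP1, a nuclear envelope protein that binds emerin, rose by 0.57 ± 0.14 (adjusted p = 0.00444) and MAN1A1 by 0.62 ± 0.12 (adjusted p = 0.000339). MAN1A1 encodes a mannosidase of the Golgi and not the membrane protein MAN1, which is the product of LEMD3. So 1 of the 2 rises counted for this list is not that of a lamin partner. In the LINC complex SUN2, which spans the inner membrane, fell by 0.70 ± 0.20 and SYNE3, nesprin-3, which binds plectin, fell by 0.70 ± 0.23 (adjusted p = 0.0132 and 0.028). With the trend removed they were at -0.23 and -0.52 (adjusted p = 0.139 and 0.0664), and without 0 h replicate 1 at -0.50 and -0.64 (adjusted p = 0.0992 and 0.0747). SYNE3 fell by 1.75 in parental cells, so the LAC response was higher by 1.06 ± 0.33 (adjusted p = 0.0368). Nuclear pore genes gave 2 higher and 2 lower of 28, against 6.74% and 8.64% of all genes. Heterochromatin writers and readers gave 2 and 4 of 22, splicing factors 4 and 3 of 30, and abundant nuclear noncoding RNAs 0 and 0 of 8. Removing the trend gave 3 and 5, 0 and 3, 2 and 10, and 0 and 0, and without 0 h replicate 1 they were 0 and 1, 0 and 1, 2 and 3, and 0 and 0.

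The remaining stress lists were read beside 6.74% higher and 8.64% lower among all genes. Unfolded protein response genes were 4 higher and 1 lower of 18, heat shock genes 0 and 3 of 14, and hypoxia targets 3 and 3 of 21. Removal of the trend gave 3 and 2, 0 and 2, and 7 and 4, and without 0 h replicate 1 they were 2 and 1, 0 and 0, and 2 and 3.

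The counts of the lists also varied with the other libraries. With each of the 8 left out in turn, the falls ranged from 12 to 14 of the YAP and TEAD targets and from 15 to 16 of the SRF and actin genes, and stayed at 4 of the caveolar genes. Rises ranged from 5 to 6 of the goblet genes, from 3 to 6 of the clock genes, from 4 to 6 of the interferon-stimulated genes and from 4 to 8 of the sterol and fatty acid genes. Falls ranged more widely for ribosome biogenesis genes (3 to 9), mitotic genes (3 to 7), ATF4 targets (1 to 5) and nuclear genes of the respiratory chain (1 to 14). Where a list above has 0 genes called in 1 direction by edgeR, its count at an unadjusted p under 0.05 was 0 for rises of YAP and TEAD targets, SRF and actin genes, caveolar and mitochondrial genes, and 1 for falls of goblet genes and 0 for falls of clock genes. DESeq2 called 0 of each of these, and limma voom 0 of each but 1 falling clock gene. For rises, the counts at an unadjusted p under 0.05, by DESeq2 and by limma voom were 3, 1 and 2 of the NF-kB list, 2, 2 and 1 of the mitotic genes, 1, 1 and 2 of the ribosome biogenesis genes and 2, 1 and 2 of the nuclear noncoding RNAs. For falls they were 0, 0 and 2 of the NRF2 targets, 1, 1 and 0 of the AHR targets and 1, 0 and 0 of the histone genes.

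**Figure D4:**
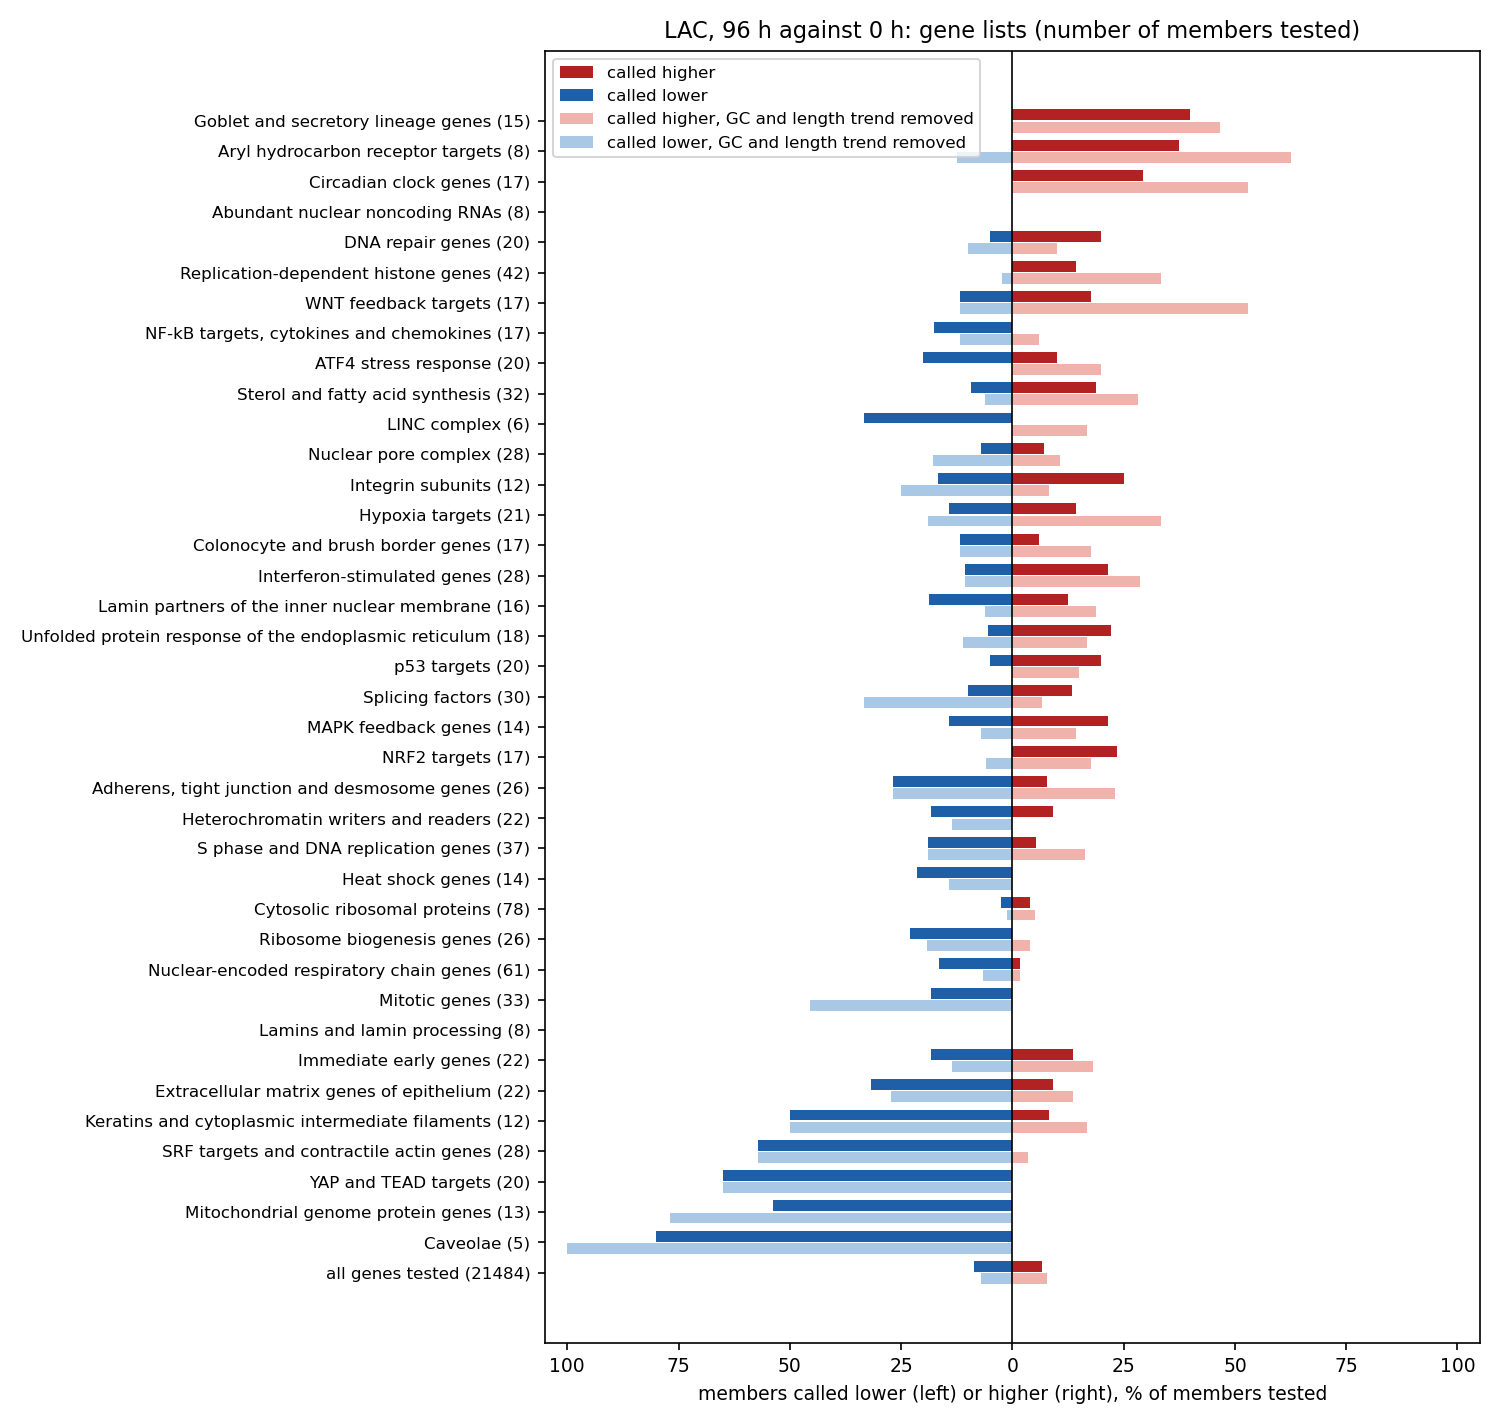
Percentage of the members tested (horizontal axis) called lower (left) and higher (right) at 96 h against 0 h in the LAC line for each gene list (vertical axis, number tested in brackets), in the designed fit (dark bars) and after removal of the trend with GC content and length (pale bars). Caveolae, SRF and actin genes, YAP and TEAD targets and the mitochondrial genome extend furthest to the left in both fits, and goblet genes, aryl hydrocarbon receptor targets and clock genes furthest to the right in the designed fit, beside 8.64% lower and 6.74% higher for all genes.

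Some genes were at low levels at 1 of the times. A mean under 0.5 CPM at 0 h and of at least 1 CPM at 96 h was found for 45 genes called higher, and the reverse for 44 called lower. DHRS3, a reductase of retinaldehyde, stood at 0, 0.111, 0.159 and 0.302 CPM at 0 h and 3.92, 3.91, 4.26 and 4.26 CPM at 96 h (adjusted p = 4.97e-08), and it rose in parental cells too (adjusted p = 1.27e-05). ABCG1, an exporter of cholesterol, stood at 0, 0.370, 0.318 and 0.302 CPM and then 2.66, 2.01, 1.53 and 1.17 CPM (adjusted p = 0.00516), and its parental change was not called (adjusted p = 0.682). RSAD2, viperin, an antiviral enzyme, went from 0, 0.444, 0.159 and 0.302 CPM to 1.12, 1.73, 1.53 and 1.76 CPM (adjusted p = 0.00579). These 3 were named after their values were seen, and 3 counts in 0 h replicate 1 correspond to 0.904 CPM, so its zeros allow levels up to that.

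The response of the LAC line differed from that of the parental line in 1589 genes (7.4%), 665 higher and 924 lower, and in 1791 (8.34%) with the trend removed, 1155 higher (5.38%) and 636 lower (2.96%). Of the 1447 genes called higher in the LAC line 277 rose beyond the parental response, where 3.1% of all genes had a higher response. Of the 1857 called lower 582 fell beyond it, where 4.3% of all genes had a lower response. The LAC change is part of this difference, so such calls are favored. Of the 3304 called, 481 were also called in the parental line, where 7.78% of all genes were called. Among the 481, 433 changed in the same direction and 48 in the opposite one. The count of differences fell to 724 without parental 96 h replicate 2, to 740 without LAC 96 h replicate 2, to 799 without LAC 96 h replicate 3 and to 904 without parental 0 h replicate 4, and it rose to 2426 without LAC 0 h replicate 2. Of the 98 genes named here with values, 47 differed between the lines, against 7.4% of all genes. Many of the 98 were picked for a large LAC change, and this choice favors such differences. In every alternative 19 of the 47 differed. The response was higher for S100P, CEMIP, STEAP1, ANKRD22, HAS2, BTN3A1, SCD, STARD4, SLC7A11 and PSMB9. It was lower for CAVIN1, ALPP, CCN1, CCN2, EGR1, PES1, NCL and CYP1A1, and ANKRD1 fell less.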

How the data were processed

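Cells were treated in wells of plates, and total RNA depleted of ribosomal RNA was sequenced in pairs from a kit that marks strand, per the labels' protocols. For 46 libraries the authors deposited gene-level read counts in 1 table, not normalized, made with featureCounts 1.6.4 in the nf-core/rnaseq 1.4.2 environment, per the file headers. STAR 2.7.10a, SAMtools 1.10, deepTools 3.4.5, DESeq2 1.40.2 and GRCh38 are named in the submitters' processing notes, with no role given. The strand setting, the annotation release and the handling of reads with several positions are not given in the sources used here. Of the 98 genes named, 14 have exons that overlap another gene on the same strand and 27 a gene on the opposite strand only, and their counts are the less certain. The table held 62756 usable genes, and 1 gene broken over 3 lines was left out. Coordinates are those of the table.

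edgeR 4.0.16 (R 4.3.3) fitted 1 quasi-likelihood model to all 46 libraries in 12 groups, 10 of 4 libraries and 2 of 3, after its filter on low counts (21484 genes) and TMM scaling. Contrasts were LAC 96 h minus 0 h, and that minus the parental contrast, with Benjamini-Hochberg adjustment over all genes tested. CPM are counts per 1000000 of the TMM-scaled library. GC content and length came from GENCODE 29 transcripts, matched for 92.8% of genes. Alternatives were DESeq2 1.42.0, limma 3.58.1 (voom with sample weights), other scalings, no filter, the compared libraries alone, the replicate number as a block, the GC and length trend removed, and each library left out. The rule for named genes was: called in both fits (with and without the trend), protein-coding, at least 5 CPM, 2-fold and without overlap, the 12 largest each way, plus the 3 lamin genes and, per list, up to 4 called members with the largest change and up to 2 of the most abundant. A further 7 genes were named after their values were seen. A few genes are not reported here. The comparison and the 43 gene lists were chosen with earlier results of these data known. Precision is limited by 4 wells per group and by 3318819 counts in the shallowest of the 8 libraries, where 3 counts are 0.904 CPM, a limit that covers counting error only. p-values measure the spread between wells.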

Additional observations from a re-analysis of the deposited data

Results flagged for a closer look

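A value far from the others of its group of 4 was found 17 times among 196 groups of 4 values examined (98 genes at 0 h and 96 h). Chance alone gives about 1 in 20. Of the 17, 14 were the value in LAC 0 h replicate 1, the shallowest library. There MSX1 stood at 130.5 CPM, ALPP at 91.9, LMNB1 at 294.6, AJUBA at 600.2, KRT19 at 1351, ZFP36 at 138.6, AXIN2 at 731.6, ISG15 at 260.6, NOP14 at 360.6, BOP1 at 457.4, PES1 at 491.1, UBE2C at 115.2 and BIRC5 at 385.2 CPM, all above the other 3 libraries, and MT-CO1 at 1632 CPM, below them. The largest gap was that of NOP14, whose other libraries lie between 77.6 and 84.1 CPM. FOS stood low in LAC 0 h replicate 2, at 18.0 CPM. At 96 h CPA4 and TNC stood high in replicate 1, at 11.5 and 13.0 CPM. The part of depth and of the GC trend in these values was not tested.

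Among the 98 named genes, 47 responded differently in the LAC and the parental line at 96 h (test of the difference itself, edgeR, adjusted over all genes). Among all genes 7.4% did. Many of the 98 were picked for a large LAC change, and this choice favors such differences. The log2 response was higher in the LAC line for ABCG1 by 3.11, S100P by 1.58, SCD by 1.50, CFTR by 1.48, BTN3A1 by 1.38, PSMB9 by 1.27, EDAR by 1.24, SLC7A11 by 1.23, STARD4 by 1.18, ANKRD1 by 1.14, OAS1 by 1.09, SYNE3 by 1.06, HAS2 by 1.06, CEMIP by 1.03, STEAP1 by 1.02, SESN3 by 0.95, ANKRD22 by 0.82 and NQO1 by 0.72. For ANKRD1 and SYNE3 this was a smaller fall.

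The LAC response minus the parental one was negative for the cytoskeletal, caveolar and junction genes PLEC (-1.48), CAVIN1 (-1.40), PKP3 (-1.24), FLNA (-0.83), CNN2 (-0.76), JUP (-0.75), ACTB (-0.70) and ACTG1 (-0.52). The same held for the YAP targets CCN1 (-1.13) and CCN2 (-0.98). The difference was negative for TMEM160 (-2.72), CTXN1 (-2.27), ALPP (-1.79), ADAT3 (-1.70), SART1 (-1.67) and CCDC9 (-1.48), for CYP1A1 (-1.79), ZFP36 (-1.14), EGR1 (-0.94) and FOS (-0.82), and for BOP1 (-1.43), PES1 (-1.32) and NCL (-1.14). The remaining ones were MT-ND5 (-1.41), MT-ND4 (-1.33), LMNB2 (-1.09), AXIN2 (-0.70), HNF4A (-0.62) and EMD (-0.59). With the GC and length trend removed 32 of the 47 were called again, and 19 were called in all 26 alternatives. The 15 not called with the trend removed were PKP3, FLNA, CNN2, JUP, ACTB, ACTG1, TMEM160, CTXN1, CCDC9, ADAT3, ZFP36, FOS, AXIN2, HNF4A and EMD.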

How the results depend on the processing

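Counts of called genes moved with the setting more than the direction of named genes did. For LAC 96 h against 0 h (3304 called, 1447 higher and 1857 lower), limma voom gave 5483 (2621 and 2862), the compared libraries alone 1067 (474 and 593), library size only 2600 higher, and leaving out 1 library 1755 to 4632 in all, 846 to 2298 higher and 909 to 2334 lower. The lowest of these were without LAC 0 h replicate 1, and 2036 (941 and 1095) were called without LAC 96 h replicate 2 and 1230 lower without its replicate 3. DESeq2 called 4192 and RLE scaling 3627, no low-count filter gave 2698, and 2795 were called without libraries under 5000000 counts. For the LAC minus the parental response (1589, 665 higher and 924 lower), limma voom gave 3055 (1336 and 1719), library size only 1408 higher and 355 lower, DESeq2 1100 higher, the GC and length trend removed 1155 higher, and leaving out 1 library 724 to 2426 in all, 270 to 854 higher and 380 to 1572 lower. RLE scaling moved the share of higher calls there from 41.9% to 57.2%, no low-count filter to 37.3%, DESeq2 to 55.4% and the trend removal to 64.5%. Same-numbered LAC libraries at 0 h and 96 h had correlations of deviations of 0.392, 0.622, -0.016 and 0.005 over 8680 genes. The parental ones were -0.154, -0.571, -0.031 and 0.067. Between LAC libraries of different number the correlations ran from -0.47 to 0.202. Because libraries also differ in their GC trend, these values cannot show whether the numbers pair the samples. With the replicate block 3424 genes were called (1519 higher and 1905 lower), and 1716 for the difference (701 and 1015). With the trend removed and the replicate block these were 3318 and 1967, the latter with 1250 higher. Of 92 named genes called, 64 kept direction and call in all 18 alternatives, and 0 reversed. The calls lost were 19 without LAC 0 h replicate 1, 20 with the compared libraries alone and 11 with the trend removed, and fewer in each other alternative. The cause was not tested. At 3318819 counts, 3 counts in LAC 0 h replicate 1 are 0.904 CPM, so levels near 1 CPM rest on few counts in that library.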

Other observations

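Called genes were spread unevenly over kinds of gene and chromosomes. Of protein-coding genes 9.32% were higher and 12.4% lower among 13734 tested, while of 2023 antisense genes 1.63% were higher and 1.78% lower, and of 1247 lincRNA genes 4.01% and 3.53%. On chromosome 19, whose tested genes have a median GC content of 58.7%, 24.4% of 1254 genes were called lower and 1.59% higher, and the median log2 change was -0.36, or -0.059 with the trend removed. On chromosome 4, with a median GC content of 43.6%, 4.1% were lower and 12.8% higher, and the median change was 0.19, or 0.051 with the trend removed.

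In SCD, STARD4 and FLNA the means of the lines were farther apart before auxin than after 96 h. The values given above show the same for S100P, ACTB and ANKRD1, and the reverse for HAS2. SCD stood at 398 ± 96.8 CPM in the LAC line and 1108 ± 117 CPM in the parental line at 0 h (SD, n = 4), and at 933 ± 89.8 and 919 ± 72.1 CPM at 96 h. STARD4 went from 65.6 ± 18.1 CPM in the LAC line and 151 ± 7.37 CPM in the parental line to 113 ± 10.2 and 113 ± 6.65 CPM. FLNA began at 5161 ± 456 and 3480 ± 449 CPM and ended at 2069 ± 514 and 2471 ± 266 CPM. CDH17 did not follow this pattern, with 25.3 ± 2.11 and 67.1 ± 12.9 CPM at 0 h and 104 ± 3.96 and 180.3 ± 12.8 CPM at 96 h. These genes were picked after their values were seen, and the difference between the lines at either time was not tested here.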
